A study of Mus musculus with 37 samples.

Results

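Cytosolic ribosomal protein genes were followed over the left hippocampus of 37 female CSS15F2 mice. A probe was a member if its platform gene symbol began with Rpl or Rps and a digit, was *Rpsa*, or began with Rplp, leaving out the Rps6k kinases and the -ps pseudogenes. This rule took 53 of the 15967 genes that the platform names, measured by 70 of its 24620 probes, and used no measured value. The 34 genes of the large subunit (60S) carried 44 probes and the 17 genes of the small subunit (40S) carried 23. *Rplp0*, the protein at the base of the ribosomal stalk, carried 2 probes. The last probe was for *Rps19bp1*, which binds the small subunit protein Rps19 and enters through its symbol only. *Rplp1*, *Rplp2*, *Rps6* and *Rps27a* are not analysed here.

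The CSS15F2 population is an intercross in which chromosome 15 segregates between the C57BL/6J host and A/J donor alleles on an otherwise C57BL/6J background. The mice were 3 to 4 months old, and total RNA from punches of frozen tissue was hybridized to 1 Illumina array per mouse. All 37 mice are treated as 1 group, because neither the chromosome 15 genotype nor the behavior of a given mouse was used here, and the spread between mice serves as the error. There were 13 BeadChips, whose numbers fall into 2 runs, called here the set of 26 arrays (9 chips) and the set of 11 (4 chips).

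Each ribosome is built from a small subunit that reads the mRNA and a large subunit that joins the amino acids, and nearly every ribosomal protein is present as a single copy per ribosome. Cells make the proteins in matched amounts, and their mRNAs typically start with a C followed by a run of pyrimidines, the 5′ terminal oligopyrimidine tract through which mTOR signalling controls their translation. In neurons these mRNAs are also found in axons and dendrites. Many of the genes have processed pseudogenes and some have paralogs, and whether a probe here also binds such copies was not tested.

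The start of the transcript was read from RefSeq (GRCm38.p6), whose table held 43 of the 53 genes. An annotated first base of C followed by at least 4 more C or T was found at 9 of the 43 genes (20.9%) and at 3.01% of the 27025 genes in the table. When that C could lie up to 5 bases to either side of the annotated start, 17 of the 43 (39.5%) had such a run, against 21.2% of all genes. Both rules also counted a C inside a longer run that began further upstream. The windows of 30 bases below run from 15 bases before the annotated start to 15 bases from it on. Capitals mark the run from the annotated start where that met the rule, and otherwise from the first C within 5 bases that did. They are shown for 5 genes whose levels fell steeply with the array measure described further on (*Rpl38*, *Rpl35a*, *Rps27l*, *Rpl34* and *Rps28*) and for *Rpl13*, which rose with it, so that starts with and without the run can be compared.
Rpl38: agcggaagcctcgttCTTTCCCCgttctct
Rpl35a: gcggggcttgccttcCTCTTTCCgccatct
Rps27l: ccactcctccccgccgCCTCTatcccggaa
Rpl34: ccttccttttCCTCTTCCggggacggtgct
Rps28: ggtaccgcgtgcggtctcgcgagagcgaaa
Rpl13: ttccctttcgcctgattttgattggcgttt
The windows lie at chr11:114668565-114668594 (plus strand) for *Rpl38*, chr16:33056467-33056496 (plus strand) for *Rpl35a*, chr9:66946071-66946100 (plus strand) for *Rps27l*, chr3:130730323-130730352 (minus strand) for *Rpl34*, chr17:33824548-33824577 (minus strand) for *Rps28* and chr8:123102335-123102364 (plus strand) for *Rpl13*. The capitals begin at the annotated first base in *Rpl38* and *Rpl35a* and near it in *Rps27l* and *Rpl34*. In *Rpl38*, *Rpl35a* and *Rpl34* more C or T stand directly before the capitals, in *Rpl34* back to the first printed base. *Rps28* and *Rpl13* had no run that met the rule within 5 bases of the start. *Rpl35a*, *Rps27l* and *Rpl34* have further annotated starts, and the one shown was picked for its run. The other starts of *Rpl35a* and *Rps27l* had none. Of the genes with a detected probe and an entry in the table, 24 had at least 1 probe that fell with the array measure after quantile normalization. A run was found in 13 of the 24, among them *Rps9*, which counts through probe 4210397 alone, and in 2 of the other 11. Whether the run and the fall are linked was not tested.

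The letters CGGAAG, searched on both strands and chosen after the sequences were seen, occurred within 250 bases before to 50 bases after the start in 28 of the 43 genes (65.1%) and in 18.8% of all genes. They were found for 19 of the 24 genes with a probe that fell and for 5 of the other 11. In the window of *Rpl38* they lie before its run.

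Ribosomal protein probes were detected far more often than the array as a whole. A probe was called detected on an array with a detection p-value under 0.01. Of the 70 members, 46 (65.7%) were detected on all 37 arrays, against 18.6% of all probes, and 54 (77.1%) on at least 19 arrays, against 34.7%. These 54 probes of 44 genes entered the tests, among 8541 probes in all, and 14 of the 17 small subunit genes and 28 of the 34 large subunit genes were among them. Detection is a property of each probe and not of the gene alone. *Rpl37* and *Rpl23* each had a probe detected on all 37 arrays beside 1 detected on none.

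The 9 genes without a detected probe were of 2 kinds. *Rpl39l*, a paralog of *Rpl39* known from the testis, and *Rpl36al*, a paralog of *Rpl36a*, were detected on 0 arrays, *Rpl22l1*, the paralog that *Rpl22* represses in mice, on 5, and *Rpl3l*, a paralog of *Rpl3* known from heart and skeletal muscle, on 9. The others are core proteins of every ribosome. Neither probe of *Rpsa*, also known as the laminin receptor, was detected on any array, nor were the probes of *Rps19* and *Rpl17*, while *Rps24* was detected on 8 arrays and the probes of *Rpl4* on 0 and 7. For these genes the arrays give no usable level. The 10 member probes detected on no array also include 1 each of *Rpl23*, *Rpl37*, *Rpl4* and *Rplp0*.

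Levels are given as normalized log2 intensity. Since the probes of an array differ in brightness for reasons of sequence, the level of a probe was compared only with its own level in other mice. Over the 37 mice, the detected members had a median SD of 0.397 on the log2 scale, against 0.425 over all detected probes, and 25 of the 54 lay above the latter. The members ranged widely among themselves, from an SD of 0.111 to 0.816. In the set of 26 arrays the medians were 0.414 for members and 0.443 for all detected probes, and in the set of 11 they were 0.301 and 0.344.

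*Rpl36*, a large subunit protein, had the largest SD of the detected members (0.816), with values of 6.67 at the lowest, 8.20 at the median and 9.80 at the highest. *Rpl7*, another large subunit protein, followed with 9.11, 10.33 and 11.53 (SD 0.772), and then *Rpl35a* with 9.49, 10.43 and 11.95 (SD 0.747). Each spanned more than 2 log2 units between mice. *Rpl38*, which in mouse embryos is needed for translation of certain *Hox* mRNAs, was at 8.60, 9.40 and 11.27 (SD 0.719). *Rpl32* was at 9.12, 10.98 and 12.28 (SD 0.718), with its lowest array 0.61 below the next. Among the 8 largest SDs were also those of *Rpl13* (0.668), 1 probe of *Rps9* (4210397, 0.661) and *Rps27l* (0.629), a paralog of *Rps27* known as a p53 target.

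At the other end, *Rpl41*, a very small basic protein of the large subunit, was at 14.47, 14.74 and 14.82, with an SD of 0.111. *Rps29* followed with an SD of 0.161, 1 probe of *Rpl27a* (110195) with 0.210 and 1 of *Rpl37* (3170494) with 0.217. The deposited signal of *Rpl41* ran from 20140 to 35960, and whether its probe was near saturation was not tested. Its normalized values fall on few levels, because quantile normalization gives the brightest probes of every array the same set of values.

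The members varied together. Among the 1431 pairs of detected members, Pearson's r over the 37 mice was positive for 71.8% of pairs, against 50.7% of all pairs of detected probes. It was above 0.5 for 28.1% of member pairs and 13.6% of all pairs, and below -0.5 for 6.29% and 12.6%. The first principal component of the members held 44.4% of their variance, against 35.5% for all detected probes. All points share the same 37 arrays, so these values are a description, with no test. The median absolute r was 0.358 for members and 0.316 for all, and 0.271 and 0.233 once the number of detected probes per array had been removed from every probe. Centred within each BeadChip, the members had a median absolute r of 0.366, and the value for all detected probes was not computed.

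Of the 54 members, 45 were correlated positively with the shared component and 9 negatively. *Rpl37a* (r = 0.968), *Rps27* (0.962), *Rps28* (0.947) and *Rpl36a* (0.941) followed it most closely. The probes that ran against it were *Rpl13* (r = -0.801), *Rpl29* (-0.663), a heparin-binding protein also called HIP, *Rpl7* (-0.613), the *Rpl27a* probe 110195 (-0.576), *Rps19bp1* (-0.568), both probes of *Rpl21* (-0.475 and -0.236), *Rps3a1* (-0.0692) and *Rpl22* (-0.026). Proteins of both subunits were found on the main side.

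**Figure D1:**
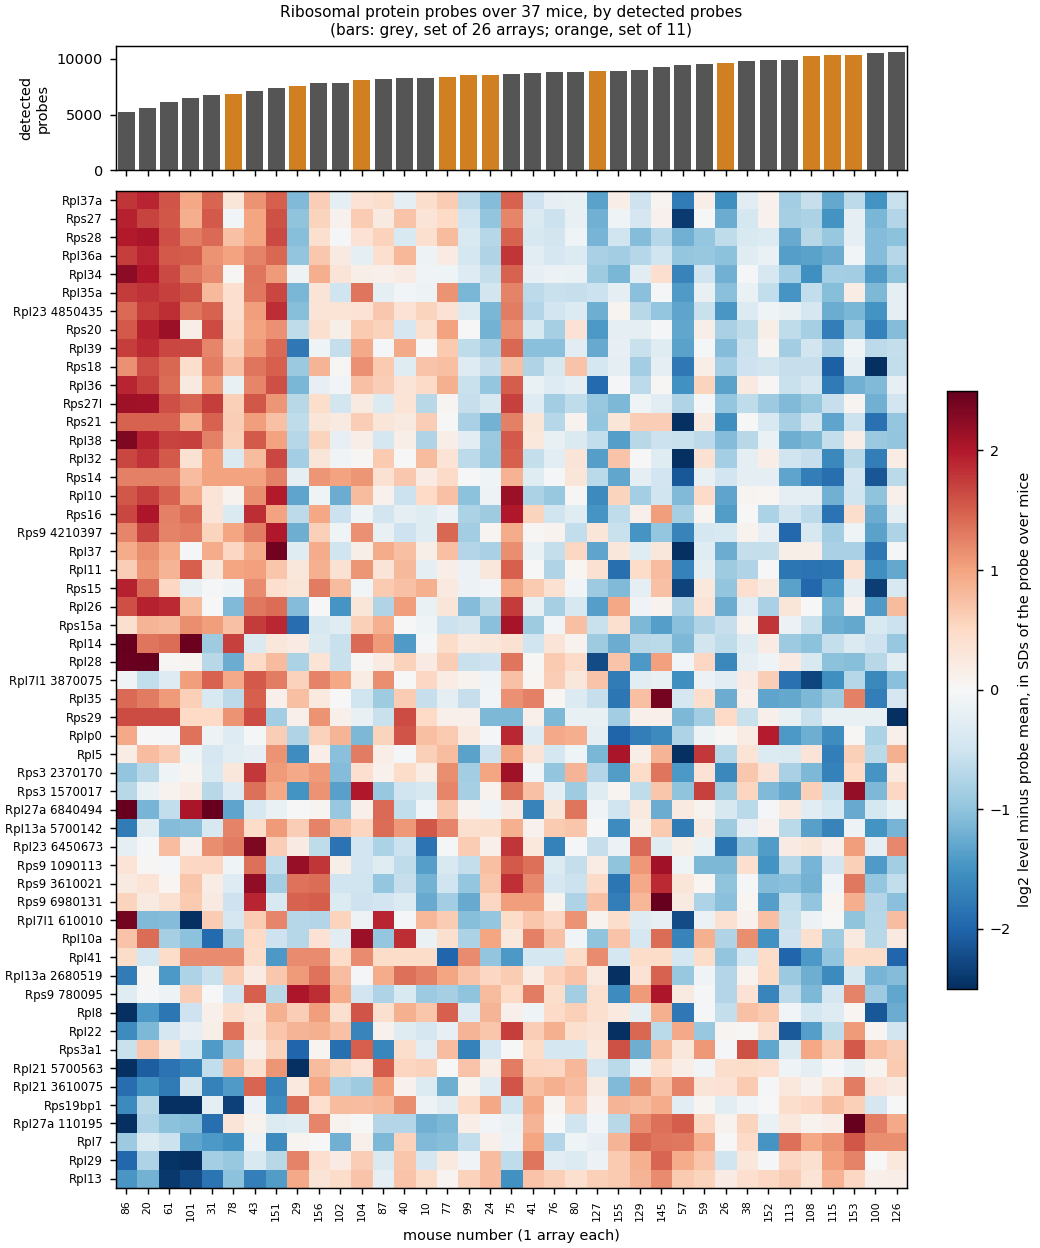
Each row is 1 of the 54 detected member probes, each column 1 of the 37 mice, and the color is the log2 level minus the mean of the probe in SDs of that probe, after quantile normalization. Mice are ordered by the number of detected non-member probes (bars above), and members by their r with the first component, from *Rpl37a* (0.968) to *Rpl13* (-0.801): most members are high at the left, where few probes were detected, and the lowest rows are low there.

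The arrays differed in how much they detected. The count of detected probes on an array ran from 5281 to 10724 with a median of 8704, and the 95th percentile of the deposited signal ran from 322 to 2610. The summed level of the hippocampal neuron markers ran from 14.0 to 15.2, with *Neurod6* not detected, and that of the choroid plexus markers from 6.86 to 14.4, with *Folr1*, *Kcne2*, *Otx2*, *Slc4a5* and *Sostdc1* not detected. The number of detected probes was counted again without the members (SD 1386 over the 37 arrays), and the slope of each probe on it was fitted with limma across all 8541 probes, in log2 units per SD. A call is a Benjamini-Hochberg adjusted p under 0.05. More than 1 biological or technical quantity can move this number, and p-values measure the spread between mice.

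After quantile normalization most detected ribosomal protein probes were lower on arrays that detected more. Without it the direction depended on how the arrays were centred. Centred on their median over all probes, most members were higher, as nearly all probes of the array then were. Centred on their median over detected probes, 44 members were called lower and 2 higher, against 45.7% and 19.8% of all probes. The slope was called lower for 29 of the 54 members, while 29.4% of all probes were called lower, and higher for 7 members, while 37.6% of all probes were called higher. The median slope was -0.12 for members and 0.03 for all probes. All 7 calls in the higher direction were outside the small subunit, of whose 19 probes 12 were lower and 0 higher, and of the 33 large subunit probes 17 were lower and 6 higher. Centring arrays only on their median over all probes is called here without quantile normalization. Under it 90.5% of all probes rose with the number of detected probes, by a median of 0.55. So did 29 members, while 8 members fell, against 1.43% of all probes. Of the 29 members lower after quantile normalization, 7 were then still called lower, 17 were not called and 5 were called higher, namely *Rpl28*, *Rps15a*, *Rpl26*, *Rpl35* and the *Rpl7l1* probe 3870075. Relative to all probes the members' median still lay 0.344 lower (-0.344), against -0.152 in the normalized values.

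*Rpl38* had the steepest decrease of the members. Its level fell by 0.58 ± 0.07 (SE, n = 37 mice) per SD of detected probes (limma, adjusted p = 2.35e-09), and the array with the highest *Rpl38* was also the one with the fewest detected probes. The 8 arrays with fewer than 7500 detected non-member probes held 7 of the 8 highest *Rpl38* values. The other mouse in that upper group, mouse 75, was at 10.69 with 8645 detected probes.

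*Rpl34*, a large subunit protein, was at 11.74 at the lowest, 12.53 at the median and 13.74 at the highest, and fell by 0.44 ± 0.05 (SE) with the smallest adjusted p of the members (limma, 2.13e-10). Its widest gap between neighbouring values (0.25) lay between 28 mice up to 12.81 and 9 mice from 13.06 on. *Rps27l* was at 10.03, 10.57 and 12.11 and fell by 0.50 ± 0.06 (adjusted p = 7.62e-09), with 29 mice up to 11.16 and 8 from 11.47 on. In both, 7 of the 8 highest values came from the 8 arrays under 7500, and mouse 75 held place 4 from the top.

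The other steep decreases were those of *Rpl35a* (-0.54 ± 0.08, adjusted p = 4.70e-07), *Rpl36* (-0.53 ± 0.10, 1.28e-05), the *Rps9* probe 4210397 (-0.46 ± 0.08, 2.26e-06), *Rpl32* (-0.45 ± 0.09, 2.68e-05) and *Rps28* (-0.43 ± 0.05, 3.02e-09), all by limma. Without quantile normalization *Rpl34* (-0.21, adjusted p = 0.00722) and *Rps28* (-0.22, 0.00875) were still called lower by limma, while *Rpl38* (-0.04, 0.654), *Rpl35a*, *Rps27l* and *Rpl32* were not called, and *Rpl36* and the *Rps9* probe had slopes above 0 without a call. In humans, *RPL35A* is among the genes mutated in Diamond-Blackfan anemia. *Rps28*, a small subunit protein, was at 12.08, 12.54 and 13.83. Its 8 highest values included 7 of the 8 arrays under 7500, with mouse 75 in place 5.

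*Rpl13* and *Rpl7* moved the other way. *Rpl13*, a large subunit protein, was at 11.49, 13.40 and 13.89 and rose by 0.47 ± 0.08 (SE) per SD (limma, adjusted p = 1.68e-06). Its widest gap between neighbouring values (0.52) lay between 9 mice at or below 12.41 and 28 at or above 12.93. Of its 8 lowest values, 7 came from the 8 arrays under 7500, with mouse 75 at 12.09. *Rpl7* rose by 0.50 ± 0.09 (limma, adjusted p = 1.54e-05), and 4 of its 8 lowest values came from those arrays. Its widest gap (0.27) lay between 23 mice up to 10.43 and 14 from 10.70 on. *Rpl29* (0.37 ± 0.07, 1.80e-05), *Rps19bp1* (0.29 ± 0.08, 0.000981), both probes of *Rpl21* (0.28 ± 0.06 and 0.21 ± 0.06) and the *Rpl27a* probe 110195 (0.14 ± 0.03, 0.000315) made up the remaining calls. Without quantile normalization all 7 were also called higher, as 90.5% of all probes were. With arrays centred on the median of detected probes, the *Rpl27a* probe (-0.10, limma adjusted p = 0.0291) and both *Rpl21* probes (-0.13, 0.00728, and -0.14, 0.0401) were called lower instead, and *Rpl13* (0.12, 0.117) and *Rps19bp1* (0.05, 0.464) were not called. In the authors' values *Rpl21* 5700563 (0.125) and *Rps19bp1* (0.0766) were not called.

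Over the members as a whole, 19 of 54 (35.2%) had at least 6 of the 8 arrays under 7500 among their 8 highest values, against 14.5% of all 8541 probes, and 4 (7.41%) among their 8 lowest, against 20.4%. Those 8 arrays lay on 5 BeadChips, 4 of them on the same chip, and 7 were in the set of 26 arrays. Mouse 75, with a middling number of detected probes, was among the 8 highest in 35 members, and the share over all probes was not computed. When only the 29 arrays with at least 7500 were fitted, 18 members were called lower and 3 higher, against 25.5% and 22.4% of all probes. Under that restriction the slope of *Rpl34* was -0.38 (limma, adjusted p = 0.000581) and that of *Rpl38* -0.285 (0.0439), and *Rps28* (-0.28, 0.0133) also kept its call. The other steep decreases did not, with *Rpl35a* at -0.27 (0.124), *Rpl36* at -0.38 (0.0822), *Rps27l* at -0.22 (0.0815), the *Rps9* probe 4210397 at -0.32 (0.0572) and *Rpl32* at -0.34 (0.0781). The slope of *Rpl13* was 0.00268 (0.984) and that of *Rpl7* 0.64 (0.00236).

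**Figure D2:**
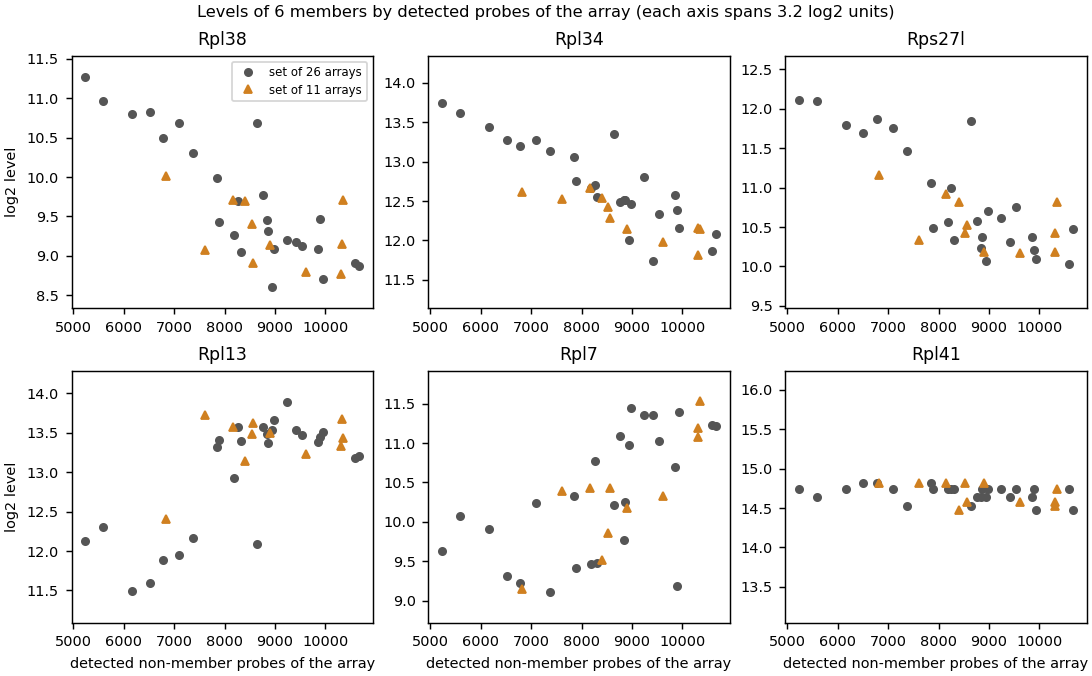
Points are single mice, with the log2 level of 6 members on the vertical axes (each 3.2 log2 units high) against the number of detected non-member probes of the array, grey circles for the set of 26 arrays and orange triangles for the set of 11. *Rpl38*, *Rpl34* and *Rps27l* each have 7 of their 8 highest points below 7500 detected probes, *Rpl13* shows 9 mice at or below 12.41, *Rpl7* rises along the range, and *Rpl41* (SD 0.111) is nearly flat.

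Within the set of 26 arrays 29 members were lower and 7 higher, against 26.7% and 35.8% of all probes. Within the set of 11 arrays 7 of 54 were lower and 2 higher, against 13.2% and 12.9%, so that the share of lower members there was about that of the array. *Rpl34* was called lower in both sets (-0.45, limma adjusted p = 3.43e-08, and -0.28, 0.0218), as *Rpl7* was called higher in both (0.46, 0.000979, and 0.70, 0.00457). *Rpl38* (-0.65 and -0.23) and *Rpl13* (0.52 and 0.18) kept their direction and passed only in the larger set (adjusted p = 0.214 and 0.304 in the smaller). With each BeadChip as a block, 27 members were lower and 7 higher, against 29% and 33.2% of all probes.

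Other parts of the translation machinery were set beside the members, without a test of the difference, and against the 37.6% of all probes that rose and the 29.4% that fell. Without quantile normalization these shares were 90.5% and 1.43%. Of 23 detected probes for translation factors, 16 rose with the number of detected probes and 4 fell, and without quantile normalization 22 rose and 0 fell. They included both probes of *Eef1a1* (0.52 ± 0.06 and 0.47 ± 0.06 SE), the elongation factor that brings aminoacyl-tRNA, and both of *Eif4a2* (0.77 ± 0.11 and 0.95 ± 0.16), an initiation helicase. The poly(A)-binding protein *Pabpc1* had 1 probe that fell (-0.40 ± 0.04) and 1 that rose (0.29 ± 0.07). *Fau*, which encodes a ubiquitin-like protein fused to the small subunit protein Rps30, fell by 0.21 ± 0.04 (limma, adjusted p = 5e-06). *Fau* thus fell as most called members did, and it was not called without quantile normalization. Of 25 ribosome biogenesis probes 12 were higher, among them *Nop56* (0.88 ± 0.11), a core protein of box C/D snoRNPs. The 6 lower ones included probe 450750 of *Polr1d* (-0.43 ± 0.05), a subunit of RNA polymerases I and III. The *Polr1d* probe 6040458 was not called (0.07 ± 0.08, limma adjusted p = 0.49). Without quantile normalization 23 of the 25 rose and 0 fell.

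Markers of other cells were read against the same shares of all probes (37.6% higher, 29.4% lower). All 3 detected erythroid probes fell, among them *Hbb-bt* (-0.73 ± 0.07), a beta globin, with a summed level between 11.4 and 13.9, and *Hbb-b2* was not detected. Of 6 microglia probes 4 fell, among them *C1qa* (-0.74 ± 0.07), and 1, *Cx3cr1*, rose (0.98 ± 0.11), with a summed level between 10.5 and 11.8 and *Itgam* and *P2ry12* not detected. Of 11 hippocampal neuron probes 5 rose and 2 fell, of 8 astrocyte probes 4 rose and 1 fell, of 12 oligodendrocyte probes 4 rose and 2 fell, of 5 endothelial probes 2 rose and 3 fell, of 8 thalamus probes 2 rose and 0 fell, and of 3 choroid plexus probes 0 rose and 1 fell. Without quantile normalization 2 erythroid probes fell and 0 rose, and no probe of the other cell type lists fell. Of all probes 1.43% then fell and 90.5% rose. In tissue RNA, fewer cells of a type and less RNA per cell cannot be told apart, and the part of these lists in the members' slopes was not tested.

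*Ly6a*, a chromosome 15 gene that the study followed for novelty-induced behavior, was the other measure against which the members were set. Its level was 9.53 ± 1.01 (SD, n = 37), between 7.34 and 11.7. Most ribosomal proteins that changed were higher in mice with more *Ly6a*, with 28 of 54 called higher, against 24.3% of 8540 probes, and 4 called lower, against 32.5%. Without quantile normalization 13 were called higher and 0 lower, against 3.92% and 0% of all probes. The median slope per log2 unit of *Ly6a* was 0.12 for members and -0.03 for all probes. Of the small subunit probes 11 were higher and 0 lower, and of the large subunit probes 17 and 4.

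*Rpl36* rose most, by 0.52 ± 0.10 (SE) per log2 unit of *Ly6a* (limma, adjusted p = 4.05e-05). *Rpl38* rose by 0.50 ± 0.08 (6.63e-06), *Rps27l* by 0.47 ± 0.07, *Rpl32* by 0.46 ± 0.09, *Rpl35a* by 0.45 ± 0.10, *Rpl37a* by 0.42 ± 0.07, *Rpl34* by 0.37 ± 0.06 and the *Rps9* probe 4210397 by 0.37 ± 0.09. The 4 that fell were *Rpl13* (-0.41 ± 0.08, adjusted p = 0.000118), *Rpl7* (-0.31 ± 0.11), *Rpl29* (-0.22 ± 0.08) and the *Rpl27a* probe 110195 (-0.10 ± 0.04). All 4 had risen with the number of detected probes.

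The 2 measures were themselves related over the mice. *Ly6a* and the number of detected non-member probes had r = -0.661 (n = 37, permutation p = 1e-05, the smallest that 100000 permutations can give) and Spearman's rho = -0.619 (permutation p = 6e-05), two-sided and the only such relation computed. Without the 2 arrays farthest from the median number of detected probes r was -0.564, in the set of 26 arrays it was -0.72, and in the set of 11 it was -0.349. Of the 54 members, 27 were lower on detected probes and higher on *Ly6a*, against 22.7% of 8540 probes, and 4 were the reverse, against 30.2%. The remaining members were called on detected probes only (5), on *Ly6a* only (1) or in neither (17), and for these the shares over all probes were not computed. With the number of detected probes as a covariate, 0 members were called on *Ly6a* and 9 of 8540 probes in all (limma). At an unadjusted p under 0.05 these were 15 members and 23.3% of all probes, against 35 members and 61.4% without the covariate.

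Among the 29 arrays with at least 7500, 0 members were called in either direction by limma, against 0.96% of all probes higher and 0.258% lower. There 17 members and 23.7% of all probes had an unadjusted p under 0.05. Within the set of 11 arrays 0 members and 0% of all probes were called by limma, and 0 members and 3.19% of all probes had such a p. Within the set of 26 arrays 28 members were higher and 2 lower, against 22.9% and 30.9% of all probes. With each BeadChip as a block 9 of 54 were higher and 1 lower, against 14.2% and 16%, so that the share of higher members was near that of the array. Under that block *Rpl36* had a slope of 0.24 (limma, adjusted p = 0.0786) and was no longer called, nor were *Rpl32* (0.0653), *Rpl7* (0.168), *Rpl29* (0.113) and the *Rpl27a* probe 110195 (0.154), and *Rpl38* kept its call (0.43, 0.0109).

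**Figure D3:**
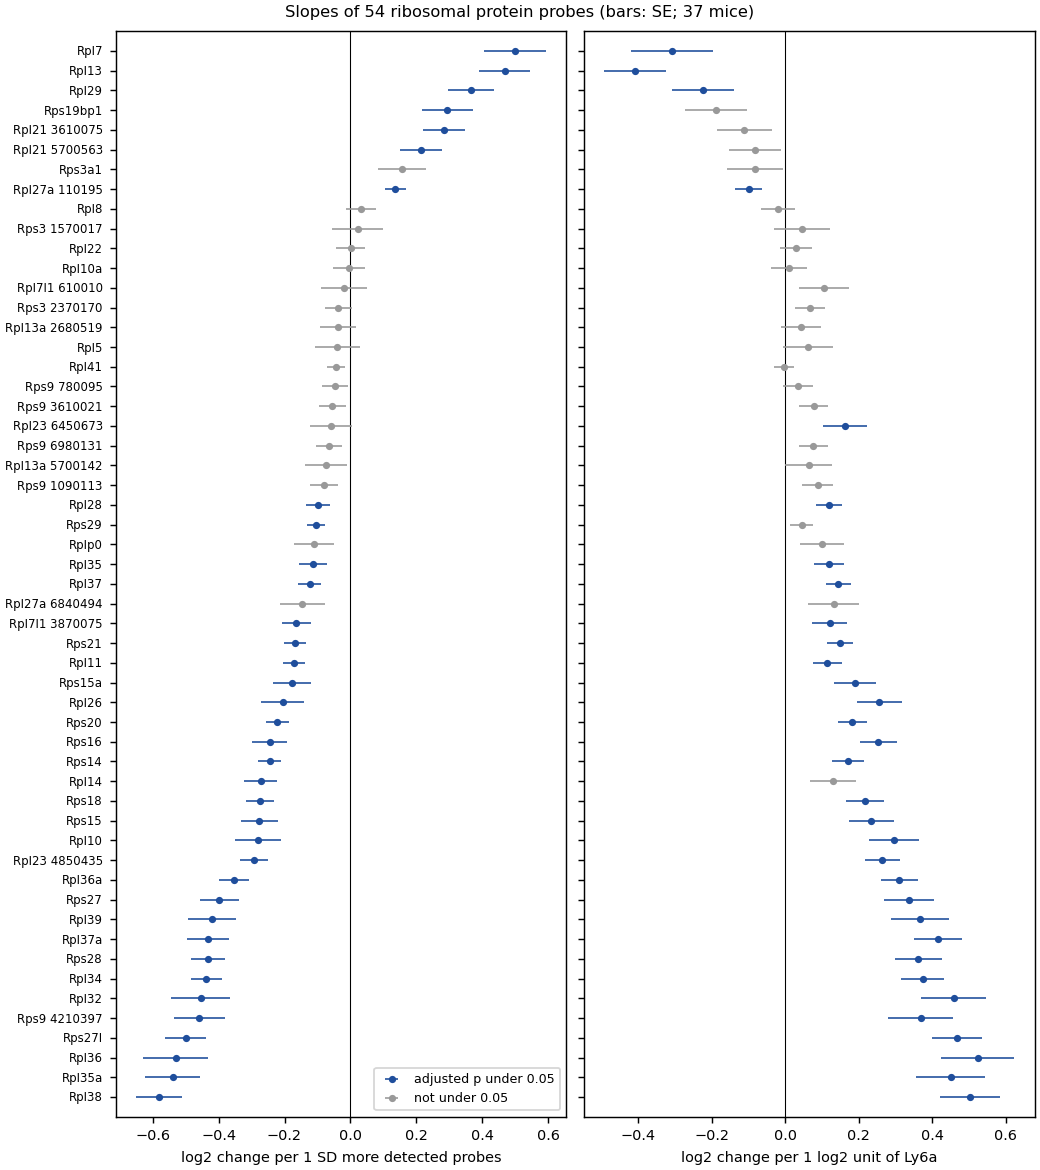
Points are the limma slopes of the 54 detected member probes over 37 mice, with their SE as bars, per SD of detected non-member probes (left) and per log2 unit of *Ly6a* (right), and blue marks an adjusted p under 0.05. Members are in the same order in both panels, from *Rpl38* (-0.58 on the left) to *Rpl7* (0.50). Of the 29 blue members lower on the left, 27 are blue and higher on the right. The left panel holds for quantile normalized values. With arrays only centred on their median over all probes 29 members rose, as 90.5% of all probes did. Centred only on the median of detected probes, 44 members were lower and 2 higher, against 45.7% and 19.8% of all probes.

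No member was called between the BeadChip sets. In the set of 11 against the set of 26 arrays, 0 members were called higher or lower by limma, against 0.00% of all probes called higher and 0.00% called lower. At an unadjusted p under 0.05, 14 members were lower and 0 higher in the set of 11, of 808 probes (9.46%) in all, 392 of them lower. The largest of these differences among the members was that of *Rpl36* (-0.84 ± 0.25 SE). Among the 12 chips with more than 1 array, 1 member was called, against 0.222% of all probes. It was *Rpl36* (limma, adjusted p = 0.0433), and it was not called without the 3 arrays with the fewest detected probes, which share a chip.

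Where a gene had several detected probes, they did not always move together. Of the 5 probes of *Rps9*, a small subunit protein that binds rRNA early in assembly, 4 agreed closely with each other over the mice (r between 0.889 and 0.941). The other, 4210397, was correlated with those 4 at r between 0.0437 and 0.181 only. Its values were 9.01 at the lowest, 10.23 at the median and 11.63 at the highest, and its SD of 0.661 stood beside SDs of 0.229 to 0.246 for the others. It was called in both slopes, and the other 4 in neither (adjusted p between 0.0878 and 0.315 on detected probes).

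*Rpl27a*, a large subunit protein, had 2 probes with r = -0.605 (Spearman's rho = -0.385) to each other. Probe 110195 rose with the number of detected probes, and probe 6840494, detected on 31 arrays and at 5.25, 5.95 and 7.24, had a slope of -0.15 ± 0.07 (limma, adjusted p = 0.0616). The 2 probes of *Rpl13a* agreed (r = 0.93), those of *Rps3* (0.533) and *Rpl21* (0.463) less so. The probes of *Rpl23* detected on all arrays were at r = 0.228, with a slope of -0.29 ± 0.04 for 4850435 and -0.06 ± 0.06 for 6450673. The probes of *Rpl7l1*, a nucleolar relative of *Rpl7*, were at r = 0.273, and 3870075 was called lower (-0.16 ± 0.04) while 610010 was not (-0.02 ± 0.07). A call for such a gene holds for the probe named.

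**Figure D4:**
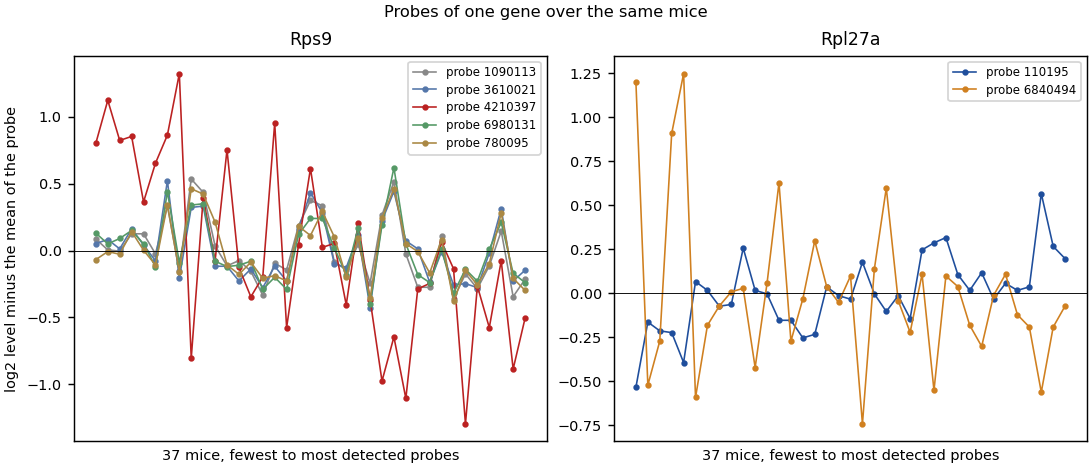
Lines join the 37 mice, ordered from fewest to most detected probes, and show the log2 level of each probe minus its mean, for the 5 probes of *Rps9* (left) and the 2 of *Rpl27a* (right). *Rps9* probe 4210397 (red) spans more than the other 4, which run together (r from 0.889 to 0.941), and the *Rpl27a* probes part most on the arrays at the left (r = -0.605).

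On chromosome 15, the chromosome that segregates in this cross, lie *Rpl37*, *Rpl8* and *Rps19bp1*. *Rpl8*, a large subunit protein near the peptidyl transferase center, was at 10.58, 11.39 and 11.74 (SD 0.261), and was called in none of the fits, with slopes of 0.03 ± 0.05 on detected probes and -0.02 ± 0.05 on *Ly6a*. *Rpl37* was at 13.54, 14.25 and 14.74 and had small called slopes (-0.12 ± 0.03 and 0.14 ± 0.03). The SDs of *Rpl8* and *Rpl37* were larger than those of 9.26% and 3.52% of detected probes, and that of *Rps19bp1* (0.559) than 75.1%. *Rps19bp1* was at 5.12 at the lowest, 6.59 at the median and 7.33 at the highest, and its lowest values lay mostly on arrays with few detected probes.

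A further group stayed without a call in either slope. *Rpl5*, which with *Rpl11* and the 5S rRNA can bind Mdm2, was at 9.52, 10.83 and 11.60, with a slope of -0.04 ± 0.07 on detected probes and 0.06 ± 0.07 on *Ly6a*. *Rpl11* was called lower and higher (-0.17 ± 0.03 and 0.11 ± 0.04). *Rplp0*, often used as a reference gene for expression, was at 5.92, 6.66 and 7.40, with -0.11 ± 0.06 (limma, adjusted p = 0.101) and 0.10 ± 0.06 (0.157). *Rpl41* had slopes of -0.04 ± 0.03 and -0.00 ± 0.03. A slope that misses the threshold does not show that the level was constant.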

How the data were processed

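Total RNA of 37 mice was measured on Illumina MouseRef-8 V1.1 arrays. The deposited intensity values were extracted and background corrected by the authors in BeadStudio on a linear scale, with no normalization between arrays, and 30.8% were negative. The detection score deposited beside them is near 1 for detected probes, so 1 minus the score served as detection p-value. A second deposited table holds log2 values, which the authors obtained by variance stabilization and robust spline normalization in lumi, and was an alternative only.

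Here the background was estimated from the detection p-values (nec of limma 3.58.1, R 4.3.3, offset 16), followed by log2 and quantile normalization. The number of arrays limits the precision. Tests were lmFit and eBayes over the probes detected (p-value under 0.01) on 19 or more of the 37 arrays, with Benjamini-Hochberg adjustment over all of them. The fits were tested on simulated data with independent probes and capped SDs, unlike the members. There the comparison among chips recovered 1% of the smaller changes and 68% of those of 1 log2 unit, fewer than the others. The comparison of chip sets recovered 68% and 100%. The slopes used the number of detected probes without members, standardized, or the *Ly6a* level. The chip comparison left out the BeadChip with 1 array.

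Gene symbols came from the platform annotation through the deposited normalized table, matched by values (24613 of 24620 probes, largest ratio of nearest to second nearest distance 0.00638). Of 24620 probes 20984 had 1 symbol, 1 had several and 3635 none. The *Ly6a* probe has no platform gene and was named from the study. Of 53 member identifiers that hold an Entrez number, 50 had the number of the platform.

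Members, lists and tests were chosen with earlier results of these data known. Named were the 8 members with the largest and 4 with the smallest SD, up to 8 called members per fit and direction, members on chromosome 15, paralogs, members whose probes disagreed, members never detected, *Rpsa* and *Rplp0*, and up to 3 called genes per other list. *Rpl5*, *Rpl11*, *Rpl22*, *Rpl36a*, *Rps27*, *Rpl13a*, *Rps3*, *Rps3a1*, *Rpl14*, *Rpl28*, *Rps15a*, *Rpl26* and *Rpl35* were named after their values were seen. Alternatives were the authors' values, no quantile normalization, offset 50, other detection filters, fewer arrays, chip blocks and sets, and covariates.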

Additional observations from a re-analysis of the deposited data

How the results depend on the processing

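The comparison of BeadChip sets called 0 members under every alternative run. Among chips, 7 members were called without quantile normalization, against 0.773% of all probes. Without the 3 arrays with the fewest detected probes, or with arrays centred on the median of detected probes, 0 were called. That centring also used no quantile normalization and was added after seeing the data. For the slope on detected probes (7 higher, 29 lower), the counts were 29 and 8 without quantile normalization (90.5% and 1.43% of all probes). With that centring they were 2 and 44, against 19.8% and 45.7% of all probes. Within the set of 11 arrays they were 2 and 7. On arrays with at least 7500 detected probes, also added after seeing the data, they were 3 and 18. Among the 46 members detected on all 37 arrays, 3 were higher and 28 lower, against 25.8% and 37.6% of all such probes. Both *Rpl21* probes, *Rpl29* and *Rps19bp1* were left out by this filter and so were not tested there. For *Ly6a* (28 higher, 4 lower), the counts were 13 and 0 without quantile normalization and 9 and 1 with the BeadChip as a block. They were 0 and 0 within the set of 11, with at least 7500 detected probes, and with detected probes as a covariate. Of all probes 0%, 1.22% and 0.105% were called in these fits. With that centring 45 were higher and 3 lower, against 39.1% and 19.5% of all probes. Without the 3 arrays 2 were lower, against 24.8% of all probes, and within the set of 26 also 2, against 30.9%. The median SD of members was 0.276 in the authors' values, 0.53 without quantile normalization and 0.357 as a median absolute deviation (0.397 as the SD). Their median absolute r was 0.351 in the authors' values, 0.502 without quantile normalization and 0.366 centred within chips (0.358 as reported). These alternatives were computed for the members only.

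Of the 29 members lower on detected probes, 12 had a slope above 0 without quantile normalization, 5 of them called higher. Among the members with the 8 largest slopes in each direction, those that changed sign on detected probes were *Rpl36* (0.0951) and *Rps9* 4210397 (0.0453) without quantile normalization, *Rpl27a* 110195 (-0.0953) and *Rpl21* (-0.126 and -0.142) with centring on detected probes, and *Rpl21* 5700563 (-0.0126) and *Rps19bp1* (-0.178) on arrays with at least 7500. On *Ly6a*, within the set of 11 arrays 10 of the 28 higher members had a slope below 0, and among the 8 largest in each direction the changes were *Rpl7* (0.0327) and *Rpl29* (0.0283) with the covariate, *Rpl27a* 110195 without quantile normalization (0.0214) and with centring (0.082), and *Rps9* 4210397 (-0.00519) and *Rpl35a* (-0.073) within the set of 11. The causes were not tested. No paired analysis was possible because all mice form 1 group. Dim members such as *Rpl14*, *Rpl21* and *Rplp0* lie close to the background of the arrays, which limits what their spread can show.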
